A study of Mus musculus with 11 samples.

Results

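A set of 8 genes of the choroid plexus and the leptomeninges, the thin membranes on the brain surface, was followed in bulk RNA sequencing of mouse cerebral cortex: Ttr, Kl, Clic6, Igf2, Igfbp2, Dcn, Col1a2 and Slc13a4. They were taken by symbol from the deposited table, in which all 8 of the named genes were found among 16228 rows, and all 8 passed the filter on low values that kept 14330 genes for testing. The tissue was punched from cortex with a 4 mm biopsy tool at postnatal day 30, and the 11 libraries are described by the submitters as biological replicates of 3 groups. Prkci cKO stands for 4 libraries labelled Ng2 Cre+ Prkci f/f, and Prkcz cKO for 3 libraries labelled Ng2-Cre+ Prkcz f/f. The Control group held 4 libraries whose labels name no Cre, of which replicates 1 and 2 were Pkcz f/+ and replicates 3 and 4 were Pkcz f/f. The Cre is driven by regulatory sequence of the NG2 gene Cspg4, which is active in oligodendrocyte precursors and also in pericytes, and no control is labelled as carrying Cre or a Prkci allele.

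The choroid plexus is a secretory epithelium inside the brain ventricles that makes cerebrospinal fluid and lies outside the cortical tissue. The leptomeninges cover the cortical surface and contain fibroblasts that lay down collagen and proteoglycans. Ttr encodes transthyretin, a carrier of thyroxine and of retinol-binding protein that choroid plexus epithelium secretes. Kl encodes klotho, a co-receptor for the hormone FGF23 in the kidney that is also made in choroid plexus, and Clic6 encodes a member of the chloride intracellular channel family. Igf2 encodes an imprinted growth factor of choroid plexus and leptomeninges, and Igfbp2 encodes a protein that binds insulin-like growth factors. Slc13a4 encodes a sodium-coupled sulfate transporter, Dcn encodes decorin, a small leucine-rich proteoglycan that binds collagen, and Col1a2 encodes a chain of type I collagen.

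RefSeq start-site windows on GRCm38.p6 were examined for 5 of the 8 genes. Ttr, Clic6 and Dcn were not among them, and any window of Ttr was left out of the search. The stretches from 250 to 6 bases before the start are shown for Kl, which moved with the choroid plexus genes, for Igfbp2, which did not once Control replicate 1 was set aside, and for Slc13a4, which moved partly with them. They lie at chr5:150952357-150952601 (plus strand), chr1:72824230-72824474 (plus strand, the first of 2 listed starts) and chr6:35308132-35308376 (minus strand), outside the annotated exons of their genes, and run 5′ to 3′ with matches to the searched motifs in capitals.
Kl: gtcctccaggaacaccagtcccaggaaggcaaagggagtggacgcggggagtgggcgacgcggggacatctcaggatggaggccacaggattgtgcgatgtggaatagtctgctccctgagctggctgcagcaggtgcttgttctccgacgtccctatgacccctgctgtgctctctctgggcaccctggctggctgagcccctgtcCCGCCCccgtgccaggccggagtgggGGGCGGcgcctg
Igfbp2: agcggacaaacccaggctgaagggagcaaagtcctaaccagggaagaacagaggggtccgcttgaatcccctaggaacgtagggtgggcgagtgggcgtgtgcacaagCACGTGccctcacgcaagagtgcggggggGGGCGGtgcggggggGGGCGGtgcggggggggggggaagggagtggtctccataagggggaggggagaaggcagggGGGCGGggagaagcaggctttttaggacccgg
Slc13a4: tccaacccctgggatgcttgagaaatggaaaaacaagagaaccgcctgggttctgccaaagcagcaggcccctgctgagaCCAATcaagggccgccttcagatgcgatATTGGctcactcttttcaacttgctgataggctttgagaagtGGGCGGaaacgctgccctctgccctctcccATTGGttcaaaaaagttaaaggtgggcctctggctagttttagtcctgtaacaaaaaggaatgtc
The motifs searched on both strands were TATAAA (a form of the TATA box), CCAAT (the CCAAT box), GGGCGG (the core bound by SP1), TAATCC (the core bound by OTX factors) and CACGTG (an E-box). None of the matches shown overlap. The Kl window had 66.9% G and C and 2 matches to GGGCGG, and the Igfbp2 window had 67.3% G and C, 3 matches to GGGCGG and 1 to CACGTG. The Slc13a4 window had 50.6% G and C, 3 matches to CCAAT and 1 to GGGCGG. Among 32851 windows of the same length the median share of G and C was 52.2%, and 32.1% held GGGCGG, 33.5% CCAAT, 5.85% CACGTG, 12.2% TATAAA and 6.13% TAATCC. Neither the TATA box form nor the OTX core was among the letters of these 3 windows.

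On GRCm38, the build in the submitters' processing notes, GENCODE M21 places Ttr on chromosome 18 (20665280 to 20674321, plus strand) and Kl on chromosome 5 (150952607 to 150993817, plus strand). Clic6 lies on chromosome 16 (92485736 to 92541243, plus strand) and shares part of its span with 2410124H12Rik on the same strand. Igf2 lies on chromosome 7 (142650766 to 142666816, minus strand) and overlaps 3 annotated genes, namely Gm49394 and Mir483 on its own strand and Igf2os on the other, so its value is uncertain where reads could belong to these. Igfbp2 lies on chromosome 1 (72824503 to 72852474, plus strand) and Dcn on chromosome 10 (97479609 to 97518143, plus strand). Col1a2 lies on chromosome 6 (4504814 to 4541544, plus strand) and overlaps Gm43921 on the same strand. Slc13a4 lies on chromosome 6 as well (35267957 to 35308131, minus strand).

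The labels were checked first by the targeted genes. Prkci averaged 67.0 ± 1.47 in Prkci cKO and 87.8 ± 2.52 in controls (SD, n = 4 each; limma adjusted p = 9.84e-04), and Prkcz averaged 278 ± 15.1 in Prkcz cKO (SD, n = 3) and 323 ± 20.2 in controls (SD, n = 4; adjusted p = 0.0966). The values throughout are the deposited signal, a normalised expression value whose columns sum to between 1021767 and 1082562. The effective depth, estimated from the step between low values, was 14740000 reads in Prkcz cKO replicate 3 and 20640000 to 28210000 in the other libraries, so the lowest value of any of the 8 genes, Clic6 in Control replicate 1, rested on about 85 reads and the highest on about 19858. The 11 cortical neuron markers in the table summed to 4254 to 4773 across the libraries, and none was at 0 throughout.

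Per kilobase of annotated exon, Ttr was far above the other genes, with a median over the 11 libraries of 454 signal units per kb (range 66.4 to 739). Igf2 at 24.1 (11.3 to 28.8) and Igfbp2 at 21.8 (12.9 to 24.3) came next and overlapped in range. Clic6 (median 4.29 per kb), Kl (3.90), Slc13a4 (3.73), Dcn (3.55) and Col1a2 (2.35) followed, each with a range that overlapped its neighbour's.

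A single control library, Control replicate 1, stood apart for all of these genes. It was the lowest of the 11 libraries for 8 of 8 genes, whereas it was the lowest for 10.4% of all genes tested. Its signal lay below 0.7 times the median of the other 10 libraries for 8 of 8 genes and for 2.80% of all genes tested, a limit chosen after the values were seen. The 8 genes and the marker lists were themselves chosen with earlier results of these data known, and several of the genes vary together. These counts are therefore a description and not a test. The median of the other 10 libraries was 6.91 times its value for Ttr, 4.63 times for Clic6 and 4.54 times for Kl. For the genes also made in leptomeninges the ratio was smaller, at 2.34 for Slc13a4, 2.24 for Dcn, 2.14 for Igf2, 1.71 for Igfbp2 and 1.67 for Col1a2. Its effective depth of 22810000 reads and its Rn45s share of 3.52%, a ribosomal RNA precursor that took 1.12% to 4.75% of the libraries, were inside the range of the others.

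Ttr had 385, 521, 523 and 614 in Prkci cKO replicates 1 to 4, 539, 877 and 577 in Prkcz cKO replicates 1 to 3, and 78.7, 850, 418 and 550 in Control replicates 1 to 4. The Control range contained all Prkci cKO libraries and 2 of 3 Prkcz cKO libraries. The Control libraries labelled Pkcz f/+ held both the lowest and the second highest value of the series, so the 2 libraries that share this genotype label were the farthest apart of the controls. The counting interval of the low value (exact Poisson, 95%, from about 1795 reads, counting error only) was 75.1 to 82.4.

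Kl had 25.4, 36.4, 29.8 and 39.6 in Prkci cKO replicates 1 to 4, 32.5, 53.7 and 37.5 in Prkcz cKO replicates 1 to 3, and 8.14, 57.5, 31.5 and 38.2 in Control replicates 1 to 4. Clic6 had 12.5, 16.8, 14.9 and 21.4 in Prkci cKO, 15.0, 26.8 and 20.2 in Prkcz cKO, and 3.72, 30.01, 13.6 and 17.65 in Control, in the same replicate order. Both genes had the highest value in Control replicate 2 and the second highest in Prkcz cKO replicate 2, and in Ttr these libraries held the top places in the opposite order. Apart from Control replicate 1, Prkci cKO replicate 1 was the lowest library for Ttr, Kl and Clic6.

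Kl and Clic6 kept nearly fixed proportions while their levels moved, and Ttr followed them less closely in Control replicate 1. The ratio of Kl to Clic6 was 1.85 to 2.32 over all 11 libraries, although each gene spanned more than 7-fold between its ends (7.06 for Kl and 8.07 for Clic6). The ratio of Ttr to Kl was 13.3 to 17.5 in 10 libraries and 9.67 in Control replicate 1. The ratio of Ttr to Clic6 was likewise 28.3 to 35.8 in 10 libraries and 21.2 in Control replicate 1. Narrow ratios were not particular to these genes. Over all 11 libraries Igf2 to Igfbp2 was 2.7 to 3.72 and Igf2 to Slc13a4 was 7.12 to 9.95. The levels of these genes spanned less, at 2.55-fold for Igf2, 1.88-fold for Igfbp2 and 2.7-fold for Slc13a4.

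**Figure D1:**
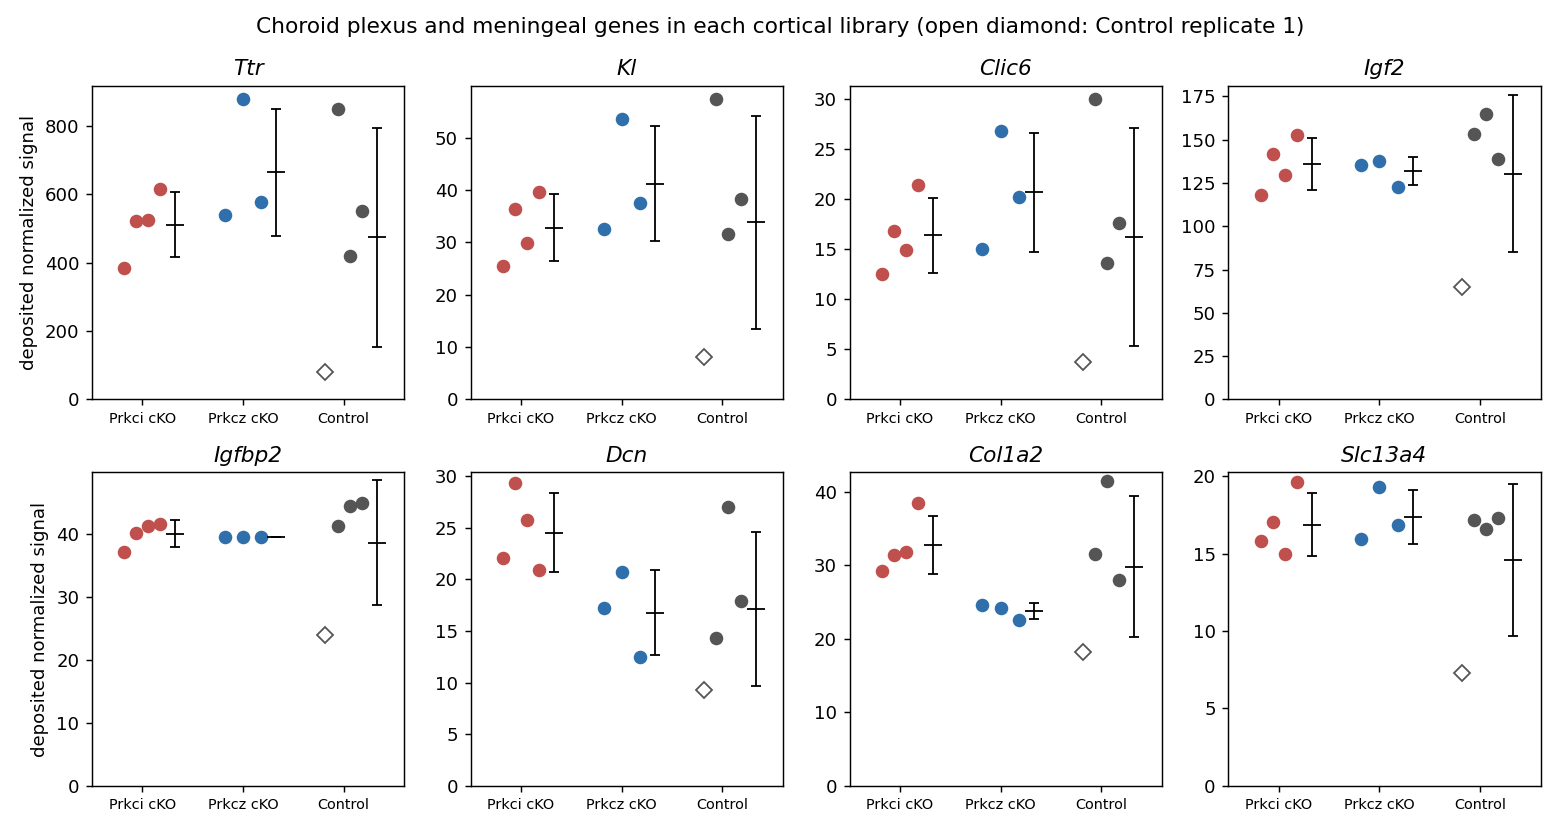
Deposited normalised signal (vertical axis, from 0) of each gene in Prkci cKO (4 libraries), Prkcz cKO (3) and Control (4); points are libraries, the open diamond is Control replicate 1, and the bar to the right of each group is its mean ± SD. The open diamond is the lowest point of every panel, at 78.7 for Ttr and 18.2 for Col1a2.

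Igf2 had 118, 142, 130 and 153 in Prkci cKO replicates 1 to 4, 135, 138 and 123 in Prkcz cKO replicates 1 to 3, and 64.6, 153, 165 and 139 in Control replicates 1 to 4. Igfbp2 had 37.1, 40.2, 41.3 and 41.6 in Prkci cKO, 39.5 in each of the 3 Prkcz cKO libraries, and 23.9, 41.3, 44.4 and 44.9 in Control. Slc13a4 had 15.8, 17.1, 15.0 and 19.6 in Prkci cKO, 15.9, 19.3 and 16.9 in Prkcz cKO, and 7.26, 17.1, 16.6 and 17.3 in Control. Outside Control replicate 1 these 3 genes varied little, with a highest value 1.39 times the lowest for Igf2, 1.31 times for Slc13a4 and 1.21 times for Igfbp2, against 2.28 times for Ttr. With that library left out, Igf2 and Igfbp2 were lower in every Prkcz cKO library than in any of the 3 remaining controls, as was Col1a2, and 9.18% of all tested genes had ranges apart in that direction and 8.05% in the other. For Prkci cKO against those 3 controls the ranges overlapped for 8 of 8 genes, while 5.72% of all genes were apart and higher and 7.63% apart and lower.

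Dcn had 22.1, 29.4, 25.7 and 20.9 in Prkci cKO replicates 1 to 4, 17.2, 20.7 and 12.5 in Prkcz cKO replicates 1 to 3, and 9.28, 14.3, 27.04 and 17.9 in Control replicates 1 to 4. Col1a2 had 29.2, 31.4, 31.9 and 38.4 in Prkci cKO, 24.6, 24.2 and 22.6 in Prkcz cKO, and 18.2, 31.6, 41.5 and 28.0 in Control. These matrix genes had a different order of libraries from Ttr. Control replicate 2, at or near the top for Ttr, Kl and Clic6, was the third lowest library for Dcn, and Control replicate 3, below the series median for those 3, was the highest for Col1a2. Dcn and Col1a2 were less tightly tied to each other than the choroid plexus genes, with a ratio of Col1a2 to Dcn of 1.07 to 2.21.

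**Figure D2:**
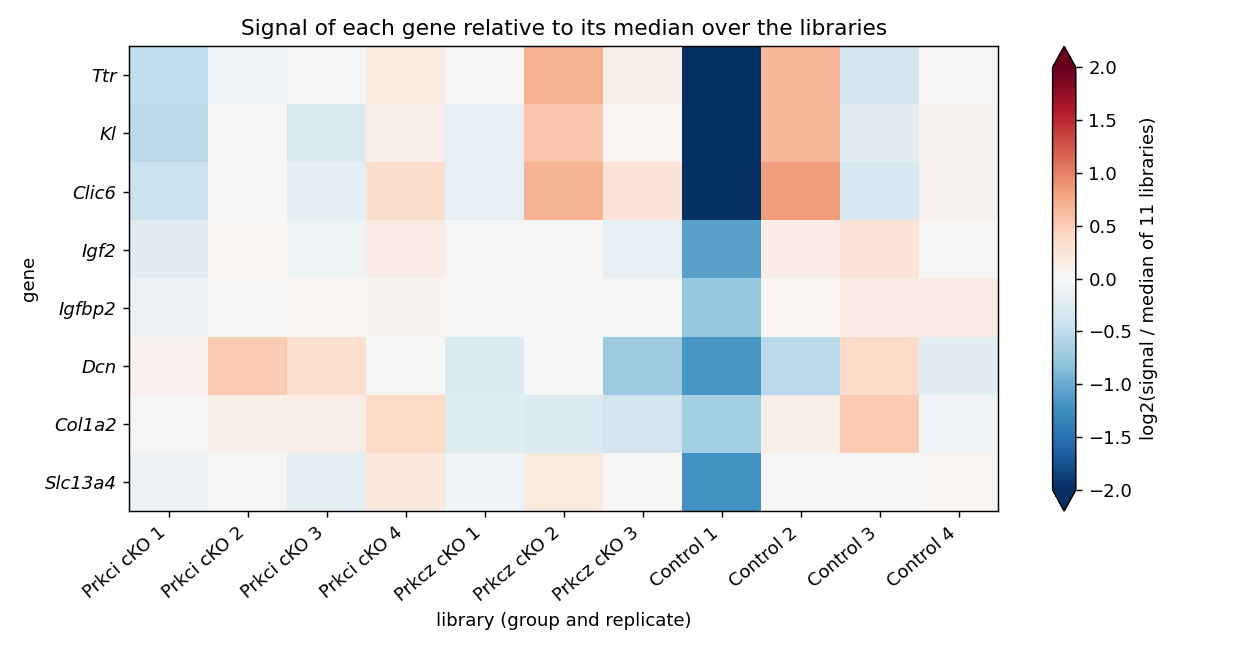
Log2 ratio of each gene's signal to its own median over the 11 libraries (colour; blue below, red above, saturated beyond 2 in either direction), with genes down the page and libraries across. Control replicate 1 is the blue column for every gene, and Control replicate 2 and Prkcz cKO replicate 2 are red for Ttr, Kl and Clic6 while Dcn is blue in Control replicate 2.

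As a description over 11 libraries that share Control replicate 1 as an extreme point, log2 levels of Ttr and Kl correlated at r = 0.987 (Spearman's rho 0.936), Ttr and Clic6 at 0.983 (rho 0.964) and Kl and Clic6 at 0.992 (rho 0.982). Without Control replicate 1 these were 0.951, 0.960 and 0.972 over 10 libraries. Ttr and Igf2 went to 0.231 without that library, against 0.884 with it, and Ttr and Igfbp2 to 0.0123, against 0.875. Ttr and Slc13a4 had r = 0.596 without it, against 0.949 with it. Ttr and Dcn had r = -0.456 without Control replicate 1, against 0.477 with it, and Igf2 and Col1a2 had 0.707, against 0.791.

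Genes most like each of the 8 were sought by Pearson's r of log2 values over the 11 libraries, among 13411 genes whose log2 mean reached 1, again as a description dominated by Control replicate 1. For Ttr they were Cldn2, a claudin of choroid plexus tight junctions (0.994), 1500015O10Rik (0.993), Kl (0.987), the folate receptor gene Folr1 (0.985) and Sostdc1, a secreted inhibitor of BMP and WNT signalling (0.985). For Kl and Clic6 the list repeated these names and added Kcne2, a potassium channel subunit, at 0.987 and 0.985. For Slc13a4 the first was Slc4a5 (0.959), a bicarbonate transporter of choroid plexus, followed by Cldn2 (0.952) and Ttr (0.949). For Igf2 they were Igfbp2 (0.959), the small leucine-rich proteoglycan gene Ogn (0.932), Ppp1r3b (0.927), Slc13a4 (0.926) and Pcolce, a collagen-processing enhancer (0.925). Igfbp2 had Igf2, Flrt3 (0.953), Bmp6 (0.951), Pcolce (0.937) and Zic1 (0.919). For Col1a2 they were Col3a1 (0.971), Cyp1b1 (0.966), Col1a1 (0.962), Bgn (0.946) and Thbd (0.944). Dcn stood apart from the other collagen-related genes, with Col23a1 (0.959), Fchsd2 (0.932), Apaf1 (0.918), Plxnc1 (0.910) and Ptpn14 (0.901).

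Other markers of the same tissues showed how far the pattern reached. Of 22 tested choroid plexus epithelium genes outside the 8, Control replicate 1 was the lowest library for 21 and lay below 0.7 times the median of the others for 19, and the exception, named after its values were seen, was Car12. Their summed signal, over 25 listed genes none of them at 0 in all libraries, was 668 to 963 in Prkci cKO, 839 to 1057 in Prkcz cKO and 486 to 1194 in Control. Cldn2 alone had 4.33, 5.64, 5.75 and 7.67 in Prkci cKO, 5.39, 9.31 and 5.62 in Prkcz cKO, and 0.74, 9.37, 4.6 and 6.15 in Control, in replicate order. It was the gene most like Ttr in these libraries (r = 0.994), so it is not a typical member of the list. Cab39l, Ace and Sulf1, next in mean signal after Enpp2, had a smaller gap. Cab39l had 31.07 in Control replicate 1 and 38.05 to 47.68 elsewhere. For Ace these values were 17.41 and 27.3 to 38.32, and for Sulf1 24.02 and 24.37 to 38.36. Enpp2, which encodes the lysophosphatidic acid-producing enzyme autotaxin and is also made by oligodendrocytes, had the highest signal of the list, not divided by length, at 490 to 707 in Prkci cKO, 621 to 777 in Prkcz cKO and 367 to 887 in Control. It made up 71.0% to 75.5% of the sum, and the other 24 genes summed to 178 to 256 in Prkci cKO, 218 to 281 in Prkcz cKO and 119 to 306 in Control, with Control replicate 1 again lowest and Control replicate 2 highest.

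Of 26 tested leptomeningeal fibroblast genes outside the 8, Control replicate 1 was the lowest library for 21 and below 0.7 times the median of the others for 19. Their sum, over 27 genes, was 611 to 698 in Prkci cKO, 536 to 645 in Prkcz cKO and 380 to 757 in Control. Ptgds, prostaglandin D synthase of leptomeninges, choroid plexus and oligodendrocytes, had 391 to 451 in Prkci cKO, 342 to 445 in Prkcz cKO and 244 to 492 in Control. It made up 61.9% to 69.1% of the sum, and the other 26 genes summed to 221 to 266 in Prkci cKO, 185 to 199.5 in Prkcz cKO and 136 to 264 in Control, with Control replicate 1 again lowest and Prkci cKO replicate 4 highest. Control replicate 1 was low in some other cell types and not in others. It was the lowest library for 1 of 8 ependymal genes, 0 of 12 endothelial genes, 0 of 11 pericyte and smooth muscle genes, 0 of 18 striatal genes and 0 of 11 cortical neuron genes, but for 3 of 5 border macrophage genes and 3 of 4 red blood cell genes. Below 0.7 times the median of the others it had 3 of 5 border macrophage genes, 4 of 4 red blood cell genes and 1 of 8 ependymal genes, and 0 genes of the endothelial, pericyte, striatal and cortical neuron lists. The part of blood in these values was not tested. In bulk tissue fewer cells of a type and less RNA per cell cannot be told apart.

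**Figure D3:**
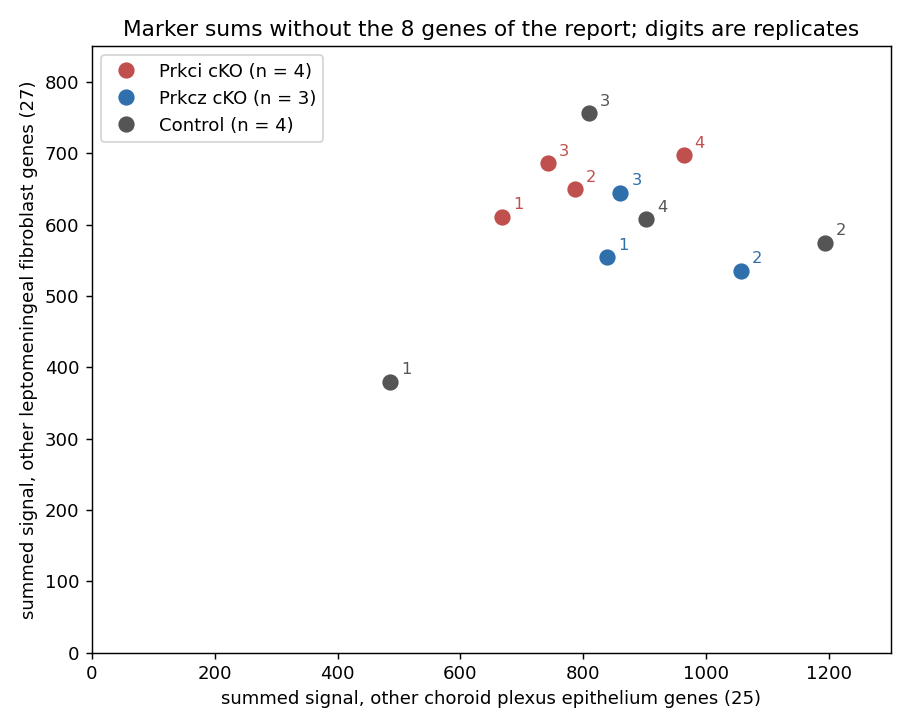
Summed signal of 27 other leptomeningeal fibroblast genes (vertical axis) against that of 25 other choroid plexus epithelium genes (horizontal axis) in each library, coloured by group and numbered by replicate; both axes start at 0. Control replicate 1 is the lowest on both axes at 486 and 380, Control replicate 2 is the farthest right at 1194, and Control replicate 3 is the highest at 757. Enpp2 and Ptgds carry most of the sums.

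The spread within groups was large for all 8 genes with every library included, and much smaller for several of them without Control replicate 1. The residual SD within groups was 0.95 on the log2 scale for Ttr, 0.79 for Clic6 and 0.77 for Kl, larger than for 99.8%, 99.7% and 99.7% of all tested genes, whose median was 0.11. It was 0.44 for Dcn, 0.40 for Igf2, 0.38 for Slc13a4, 0.32 for Col1a2 and 0.27 for Igfbp2, of which Igfbp2 exceeded 91.6% of tested genes and Dcn 98.3%. Without Control replicate 1 it was 0.43 for Clic6, 0.39 for Ttr, 0.36 for Kl and 0.34 for Dcn, still larger than for 96.7% to 98.5% of tested genes. It was then 0.19 for Col1a2 (larger than for 80.6%), 0.13 for Igf2 (62.3%), 0.13 for Slc13a4 (62.1%) and 0.061 for Igfbp2 (13.9%), so Igfbp2 was among the less variable genes in the other 10 libraries.

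In Prkci cKO against Control, the first comparison of the design, 0 of the 8 genes changed at a limma adjusted p under 0.05, and 1.61% of all genes tested passed in either direction. The ranges overlapped for 8 of 8, while 3.18% of all genes had ranges apart and higher in Prkci cKO and 5.32% apart and lower. At an unadjusted p under 0.05 there was 1 of 8, Dcn, against 12.1% of all genes. Dcn averaged 24.5 ± 3.84 in Prkci cKO and 17.1 ± 7.49 in Control (SD, n = 4 each), a log2 difference of 0.59 (95% interval 0.06 to 1.12; limma adjusted p = 0.341), with overlapping ranges. Ttr averaged 511 ± 94.5 in Prkci cKO and 474 ± 320 in Control (SD, n = 4 each), a log2 difference of 0.52 (interval -0.60 to 1.63; adjusted p = 0.755). The other 6 genes had log2 differences of 0.09 for Igfbp2 to 0.30 for Clic6. The narrowest interval was that of Igfbp2, from -0.23 to 0.42.

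The median log2 difference of the 8 genes was 0.25, with 8 of 8 above 0, against 0.00 for all genes tested. These differences are between means of log2 values, in which a low library counts more than in the averages of signal. Kl, counted as above 0 (0.23), averaged 32.8 in Prkci cKO and 33.8 in Control. Without Control replicate 1 the median was -0.14 and 1 of 8, Dcn at 0.34, was above 0, with Ttr at -0.20, Kl at -0.34 and Col1a2 at -0.03. At an unadjusted p under 0.05 there were then 0 of 8, against 12.8% of all genes, and 1.07% of all genes passed the threshold. The choroid plexus epithelium list, which includes 3 of the 8, had 0 of 25 genes past the limma threshold (1 at an unadjusted p under 0.05), a median of 0.22 and 21 genes above 0, and without that library a median of -0.21 with 2 above 0. The leptomeningeal fibroblast list, which includes the other 5, had 0 of 31 past the threshold (3 unadjusted) and a median of 0.22 with 31 above 0, and without that library a median of 0.04 with 17 above 0.

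In Prkcz cKO against Control, 0 of the 8 genes passed, against 0.649% of all genes tested by limma, and 0 of 8 had an unadjusted p under 0.05, against 15.0%. The ranges overlapped for 8 of 8, while 5.16% of all genes had ranges apart and higher in Prkcz cKO and 6.72% apart and lower. Both comparisons share the same 4 control libraries. Ttr averaged 664 ± 185 in Prkcz cKO (SD, n = 3) and 474 ± 320 in Control (SD, n = 4), a log2 difference of 0.88 (interval -0.32 to 2.08; limma adjusted p = 0.479). Clic6 had a log2 difference of 0.62 (interval -0.39 to 1.62) and Kl one of 0.54 (interval -0.44 to 1.52). Slc13a4 (0.32), Igf2 (0.10), Igfbp2 (0.07) and Dcn (0.04) were nearer to 0. Col1a2 alone was below 0, at 23.8 ± 1.10 in Prkcz cKO (SD, n = 3) and 29.8 ± 9.62 in Control (SD, n = 4; log2 difference -0.26, interval -0.67 to 0.15; adjusted p = 0.544).

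The median of the 8 was 0.21, against -0.01 for all genes tested, and -0.08 without Control replicate 1, with 3 of 8 above 0. Leaving out that library brought Ttr to 0.16, Kl to -0.03 and Clic6 to 0.06. It also left 0 of 8 past the threshold (0.188% of all genes) and 3 of 8 at an unadjusted p under 0.05, where 14.2% of all genes were. These were Col1a2 (-0.47, interval -0.75 to -0.20; limma adjusted p = 0.149), Igf2 (-0.21; adjusted p = 0.331) and Igfbp2 (-0.14; adjusted p = 0.327). In the choroid plexus epithelium list 0 of 25 genes passed (0 unadjusted), with a median of 0.41 and 24 above 0, and without Control replicate 1 a median of -0.03 with 10 above 0. The leptomeningeal fibroblast list had 0 of 31 past the threshold (1 unadjusted), a median of 0.01 with 17 above 0. Without that library its median was -0.21, with 28 of 31 below 0 and 10 at an unadjusted p under 0.05. Vascular markers moved in the same comparison. With all libraries 12 of 12 endothelial genes were below 0 in Prkcz cKO, and Flt1 (log2 -0.50, limma adjusted p = 0.00964) and Kdr (-0.60, adjusted p = 0.0379) fell, as did the pericyte gene Rgs5 (-0.39, adjusted p = 0.0197), with 10 of 11 pericyte and smooth muscle genes below 0. With 1 library left out Flt1 passed in 7 of 7 fits, Rgs5 in 4, with the call lost without Control replicate 1 or Prkcz cKO replicate 2 or 3, and Kdr in 0 (adjusted p 0.0545 to 0.109).

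The knockouts were compared with each other without any control library, so this comparison depends on Control replicate 1 only through the shared estimate of spread. That part was large for some genes. The residual SD was 0.95 with that library and 0.39 without it for Ttr, and 0.27 and 0.061 for Igfbp2. It fell less for Dcn (0.44 and 0.34) and Col1a2 (0.32 and 0.19). A larger residual SD widens an interval, but the intervals between the knockouts were not examined without that library. In Prkci cKO against Prkcz cKO 0 of the 8 genes passed, against 0.300% of all genes tested by limma, and 1 of 8, Col1a2, had an unadjusted p under 0.05, against 16.0%. Col1a2 averaged 32.7 ± 3.98 in Prkci cKO (SD, n = 4) and 23.8 ± 1.10 in Prkcz cKO (SD, n = 3), a log2 difference of 0.44 (interval 0.03 to 0.86; limma adjusted p = 0.287). Dcn averaged 24.5 ± 3.84 in Prkci cKO (SD, n = 4) and 16.8 ± 4.14 in Prkcz cKO (SD, n = 3), a log2 difference of 0.55 (interval -0.02 to 1.12; adjusted p = 0.328). For these 2 genes every Prkci cKO library lay above every Prkcz cKO library, and 7.36% of all tested genes had ranges apart in that direction and 6.43% in the other. For Dcn the nearest libraries were Prkci cKO replicate 4 at 20.87 and Prkcz cKO replicate 2 at 20.7. Their counting intervals (19.2 to 22.6 and 18.9 to 22.7) overlapped, so the Dcn ranges were apart by less than counting error.

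Ttr (-0.36, interval -1.57 to 0.84), Kl (-0.31) and Clic6 (-0.31) were lower in value in Prkci cKO with intervals that crossed 0, while Igf2 (0.04, interval -0.47 to 0.54), Igfbp2 (0.02) and Slc13a4 (-0.04) were near 0. The leptomeningeal fibroblast list had 0 of 31 genes past the threshold (7 unadjusted, against 16.0% of all genes). Its median was 0.24 with 29 above 0, against -0.01 for all genes tested, and Col1a1 had a log2 difference of 0.56 (limma adjusted p = 0.249). Vascular markers differed in the same libraries. The summed endothelial signal was 282 to 309 in Prkci cKO and 207 to 218 in Prkcz cKO, and Flt1 (log2 difference 0.68, limma adjusted p = 0.00140), Kdr (0.92, adjusted p = 0.00840) and Vwf (0.85, adjusted p = 0.0213) were higher in Prkci cKO. The pericyte and smooth muscle sum was 150 to 170 in Prkci cKO and 118 to 129 in Prkcz cKO, and Rgs5 (0.44, adjusted p = 0.00890) and Myl9 (0.68, adjusted p = 0.0294) were higher. With 1 library left out Flt1, Kdr and Rgs5 passed in 7 of 7 fits, Vwf in 3, with the calls lost without Prkci cKO replicate 1, 2 or 4 or Prkcz cKO replicate 3, and Myl9 in 2, with the calls lost without any Prkci cKO library or Prkcz cKO replicate 2. Fibroblasts of vessel walls also express Col1a2 and Dcn, and the part of vessels in the difference was not tested.

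**Figure D4:**
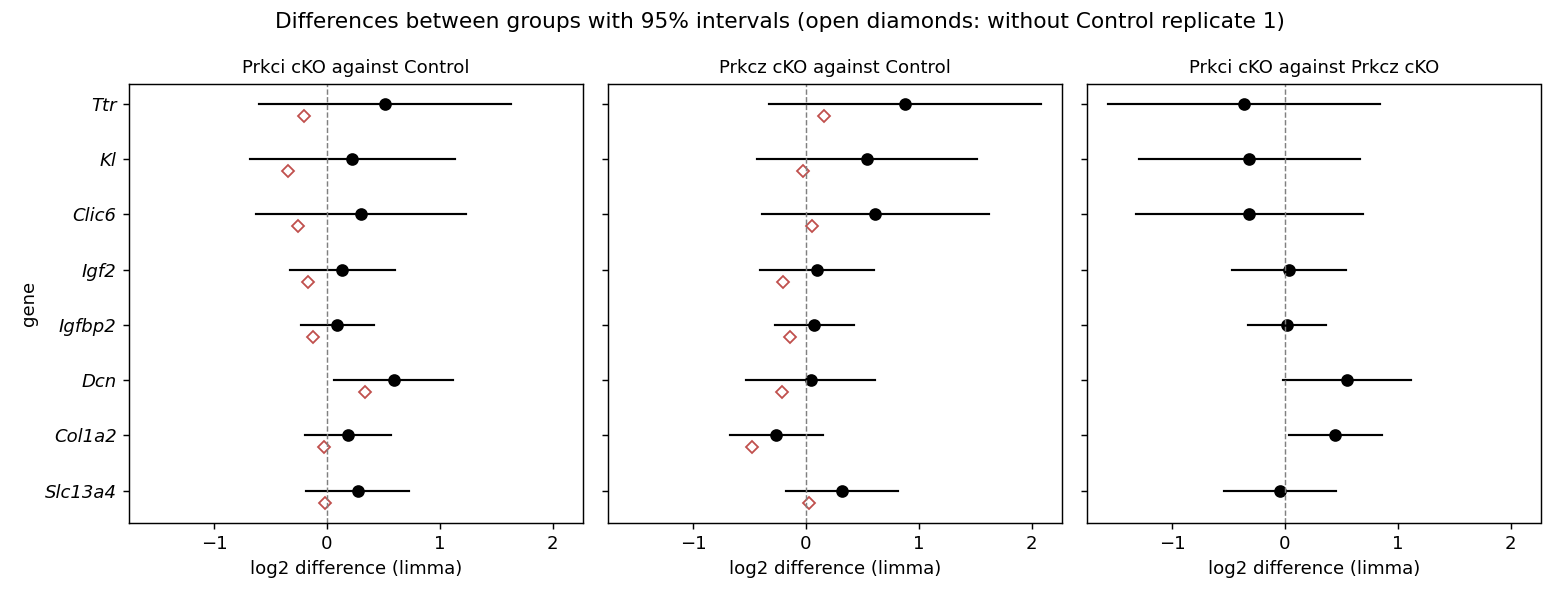
Log2 difference (horizontal axis) of each gene in the 3 comparisons from limma, with 95% intervals (black points and lines), and the estimate without Control replicate 1 (open diamonds, in the comparisons with controls). The diamonds lie left of the points for every gene, from 0.52 to -0.20 for Ttr in Prkci cKO, and the 95% interval lies above 0 for Dcn in Prkci cKO against Control (0.06 to 1.12) and for Col1a2 between the knockouts (0.03 to 0.86).

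Among the families of these genes, Clic4 and Fgfr2 passed the test. In the chloride intracellular channel family, Clic4, which is widely made outside the plexus, had 95.6, 83.8, 81.9 and 93.9 in Prkci cKO, 83.4, 79.1 and 90.1 in Prkcz cKO, and 134, 120, 116 and 115 in Control, in replicate order. It fell in Prkci cKO (log2 -0.45, limma adjusted p = 0.00311) and in Prkcz cKO (-0.52, adjusted p = 0.00872), with every knockout library below every control. With 1 library left out, Clic4 passed in 8 of 8 fits for Prkci cKO and in 6 of 7 for Prkcz cKO, the exception being without Prkcz cKO replicate 2 (adjusted p = 0.0507). Clic1 (0.05 and -0.13) and Clic5 (0.01 and -0.33) did not pass in either comparison. Control replicate 1, the lowest library for Clic6, was the highest for Clic4.

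In the group of klotho and fibroblast growth factor receptors, Fgfr2 had 37.2, 36.1, 34.9 and 43.3 in Prkci cKO, 38.0, 38.8 and 36.4 in Prkcz cKO, and 54.7, 54.9, 50.2 and 44.5 in Control. It fell in Prkci cKO (log2 -0.43, limma adjusted p = 0.0113) and in Prkcz cKO (-0.43, adjusted p = 0.0359). The Prkci cKO call was lost only without Prkci cKO replicate 2 (adjusted p = 0.0557; 7 of 8 fits passed), whereas the Prkcz cKO call passed only without Control replicate 4, in 1 of 7 fits (adjusted p 0.022 to 0.123). Fgfr1 and Fgfr3, the other 2 tested besides Kl, did not pass. Of 17 tested genes of the insulin-like growth factor system, Igf2 and Igfbp2 included, 0 passed in any of the 3 limma comparisons. At an unadjusted p under 0.05 there were 3, 4 and 10, against 12.1%, 15.0% and 16.0% of all genes. The medians were 0.08 in Prkci cKO, -0.08 in Prkcz cKO and 0.14 between the knockouts. Besides Igf2, the highest mean signals of this group, not divided by length, were those of Igfbp5 (259), Igfbp4 (98.3) and the receptor gene Igf1r (85.9). Igf1r was lowest in Prkcz cKO replicate 3, at 50.05 against 80.55 and 84.1 in the other Prkcz cKO libraries.

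Of 24 tested genes of fibrillar collagens, their processing enzymes and small leucine-rich proteoglycans, 0 passed in any comparison (4, 5 and 8 unadjusted). For this list and those that follow, the unadjusted shares of all genes were 12.1%, 15.0% and 16.0% in the same order. Of the 24 genes, 16 were above 0 in Prkci cKO and 3 in Prkcz cKO against Control, and 22 between the knockouts. Without Control replicate 1, 10 of the 24 were above 0 and 14 below in Prkci cKO, with a median of -0.02. In Prkcz cKO 0 were then above 0 and 24 below, with a median of -0.30. Again 0 passed, and 3 and 10 had an unadjusted p under 0.05, against 12.8% and 14.2% of all genes. Of 12 tested thyroid hormone and retinoid carriers, 0 passed (3, 3 and 5 unadjusted), although the thyroxine transporter gene Slco1c1, named after its values were seen, was below the threshold in Prkcz cKO without Control replicate 1 (log2 -0.30, limma adjusted p = 0.0451, against 0.176 with it). Of 3 tested SLC13 transporters, 0 passed (1, 0 and 1 unadjusted). Ependymal genes, the ciliated lining next to the choroid plexus, had 0 of 8 past the threshold in any comparison (0, 1 and 0 unadjusted), and their sum was 21.1 to 25.7 in Prkci cKO, 20.2 to 25.2 in Prkcz cKO and 21.1 to 31.6 in Control, with Control replicate 1 at 25.3.

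Striatal markers varied in another order. The striatal sum was 548 to 888 in Prkci cKO, 972 to 1922 in Prkcz cKO and 961 to 1474 in Control, and all 18 striatal genes were below 0 in Prkci cKO against Control, with a median of -0.89 and 17 of 18 at an unadjusted p under 0.05 (12.1% of all genes). Without Control replicate 1, 18 of 18 were below 0 and 15 had an unadjusted p under 0.05. At the limma adjusted threshold (1.61% of all genes) 2 of 18, Sh3rf2 (log2 -1.48, adjusted p = 0.0486) and Cd4 (-1.59, adjusted p = 0.0492), fell in Prkci cKO. With 1 library left out Cd4 passed in 0 of 8 fits (adjusted p 0.0536 to 0.14) and Sh3rf2 in 2 of 8, those without Control replicate 2 or Prkci cKO replicate 3. Prkcz cKO replicate 3 had the highest striatal sum and the lowest Col1a2 and Dcn of the knockouts, and Control replicate 1, lowest for all 8 genes, was at 1452, near the top of the controls. Red blood cell genes had 0 of 4 past the threshold in any comparison (0, 0 and 1 unadjusted, against 12.1%, 15.0% and 16.0% of all genes). Their sum was 229 to 463 in Prkci cKO, 184 to 321 in Prkcz cKO and 156 to 385 in Control. Against Control, 4 of 4 were above 0 in Prkci cKO and 4 of 4 below 0 in Prkcz cKO. Without Control replicate 1, 4 of 4 were below 0 in both, with medians of -0.16 and -0.59. Then 0 of 4 passed, and 0 and 3 had an unadjusted p under 0.05, against 12.8% and 14.2% of all genes.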

How the data were processed

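RNA from cortical punches was sequenced in 11 libraries, described by the submitters as biological replicates. The submitters' processing notes name GRCm38 as the build and edgeR, RSEM, STAR, Trim Galore and FastQC as tools. Their versions, the annotation, the strand setting and the scaling method were not stated. The deposited table gives the authors' normalised signal for 16228 genes. Per library, 85.9% to 89.2% of signals below 0.5 fell no more than 0.005 from multiples of a fixed step. Approximate reads and depth were taken from that step, and no count model was used, because too few values were whole reads.

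Genes reaching 1 in 3 libraries or more entered the test (14330). Log2(signal + 0.5), a scale that understates changes of low genes, was fitted with limma 3.58.1 in R 4.3.3 over all 3 groups (eBayes with trend, no covariate, 8 residual degrees of freedom). P-values are two-sided, with Benjamini-Hochberg adjustment over the genes tested and a threshold of 0.05. The procedure was tested on simulated data with the same noise for every gene and no outlying library. That setting does not describe genes as variable as those followed here.

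The 8 genes and all marker lists were chosen with earlier results of these data known. The other genes named are Prkci and Prkcz, up to 4 genes of each list (those past the threshold, otherwise those of highest mean), and the 5 closest to each of the 8 by correlation. Alternatives covered the pseudocount, filter, scaling, variance model, samples fitted, control genotype, a replicate block and each library left out. The marker lists and correlations without Control replicate 1, list genes with each library left out, the spread and overlap without that library, and the sums without their largest gene were added after seeing the data. Cre and mouse line coincide with the groups and cannot be told apart from them.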

Additional observations from a re-analysis of the deposited data

Results flagged for a closer look

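Within the 4 controls, 2 genes had a library far from the others by Dixon's criterion. Igfbp2 was at 23.9 in Control replicate 1, and the other controls lay between 41.3 and 44.9, so that the gap was 0.83 of the group's range. Slc13a4 was at 7.26 in the same library, and the other controls lay between 16.6 and 17.3, a gap of 0.927 of the range. Ttr, Kl and Clic6, whose controls also include a high library in replicate 2, did not meet the criterion. Of 20 groups of values examined, 2 met it, and chance alone gives about 1 in 20 for independent values. The groups share libraries and hold genes that vary together, and both flags were Control replicate 1. Igfbp2 and Slc13a4 correlated at r = 0.917 over the 11 libraries, so these are not 2 separate results. Igfbp2 only just met the criterion.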

How the results depend on the processing

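None of the 8 genes passed the limma threshold under any alternative run (144, 136 and 128 refitted values in the 3 comparisons, smallest adjusted p 0.068). Over all genes, 230 passed in Prkci cKO against Control, and 346 did with array weights, 132 with the f/f controls only and 95 to 211 with 1 library left out. In Prkcz cKO against Control 93 passed, and 30 did without a variance trend, 59 with the f/f controls only, 29 with only the 2 groups fitted and 13 to 77 with 1 library left out. Between the knockouts 43 passed, and 112 did with array weights and 10 to 152 with 1 library left out. With a replicate block the counts were 263, 69 and 73, and Igf2 (-0.022) and Igfbp2 (-0.033) turned negative between the knockouts. Deviations of libraries with the same replicate number correlated at -0.186 to 0.196 over 10 pairs. Libraries of different number were not compared, so whether the numbers mark pairs was not settled. With the f/f controls only, log2 differences turned negative in Prkci cKO for Kl (-0.10), Igf2 (-0.16), Igfbp2 (-0.16), Col1a2 (-0.065) and Slc13a4 (-0.015), and in Prkcz cKO for Igf2 (-0.20), Igfbp2 (-0.18) and Dcn (-0.41). With 1 library left out, values in Prkci cKO against Control ran from -0.20 to 0.94 for Ttr, -0.34 to 0.57 for Kl, -0.26 to 0.69 for Clic6, -0.17 to 0.28 for Igf2, -0.12 to 0.18 for Igfbp2, -0.029 to 0.36 for Col1a2 and -0.020 to 0.38 for Slc13a4. In Prkcz cKO against Control they ran from -0.027 to 0.89 for Kl, -0.21 to 0.24 for Igf2, -0.14 to 0.16 for Igfbp2 and -0.21 to 0.29 for Dcn, and between the knockouts from -0.023 to 0.10 for Igf2 and -0.12 to 0.033 for Slc13a4. Every lowest value against Control came without Control replicate 1. The causes of these shifts were not tested. The counting interval of the lowest value, Clic6 in Control replicate 1 (3.72), was 2.98 to 4.61 and lay below every other library, whereas Igfbp2 in Prkcz cKO and Slc13a4 in Control replicates 2 to 4 differed by less than their counting intervals.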

Other observations

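Without Control replicate 1, the genes closest to Ttr, Kl and Clic6 over the 10 remaining libraries were still choroid plexus genes, with Folr1 first for Ttr (r = 0.973) and for Clic6 (0.979), and Clic6 first for Kl (0.972). Igfbp2 changed company. Its closest genes were Olig2, a transcription factor of the oligodendrocyte lineage (0.944), and the immediate early genes Dusp1 (0.940), Ier2 (0.939), Btg2 (0.935) and Arc (0.931), in place of Igf2, Flrt3 and Bmp6. Igf2 had Matn4 first (0.929), and Slc13a4 had Mmp15 (0.932). Col1a2 kept Col3a1 (0.953), Cyp1b1 (0.944) and Col1a1 (0.942). Igfbp2 varied little over these 10 libraries, with a residual SD of 0.061 on the log2 scale, larger than for 13.9% of tested genes. The genes named are the highest of 13411 correlated with each gene, so high values are likely even without a shared source. These correlations are descriptions over libraries that share scaling and group structure, and what the change for Igfbp2 reflects was not tested.

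Igfbp2 was nearly the same in the 3 Prkcz cKO libraries, at 39.46, 39.46 and 39.49, although they rested on about 973, 894 and 582 reads with counting intervals of 37.0 to 42.0, 36.9 to 42.1 and 36.3 to 42.8.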
